A study of Mus musculus with 15 samples.

Results

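RNA of the plantaris, a fast hindlimb muscle that points the foot, was compared between the second block of trained libraries and the untrained libraries of 6-month-old male mice. The members were 6 of the 15 libraries of the series: the 3 titled as trained replicates 4 to 6, whose identifiers in the titles begin with LD (here the LD libraries), and the 3 titled as untrained replicates 1 to 3. All genes of the table were used. The mice were HSA-GFP animals, in which the human skeletal actin promoter drives a reverse tetracycline transactivator in muscle fibres and a tetracycline response element drives histone 2B fused to green fluorescent protein. Untrained controls carried the same transgenes. Per the titles and the design text, trained mice ran with progressive weighted wheel running (PoWeR), in which the wheel is loaded with rising weight, for 8 weeks from 4 months of age. The other 9 libraries were 3 of a first trained block of 6 months (replicates 1 to 3), 3 untrained and 3 trained then detrained for 12 weeks, both of 9 months.

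The labels of the LD libraries contradict each other. Their titles call them trained, and the treatment field of all 3 calls them sedentary, the word that it also gives for the 3 untrained libraries of 6 months. The same field calls the 3 trained then detrained libraries of 9 months sedentary and the 3 untrained ones of that age detrained, so it departs from the titles in those groups too. Every direction below is therefore LD against untrained as the titles name them, and whether the LD mice ran was not tested. The identifiers of the untrained and of the first trained libraries begin with PoW and those of the second block with LD, so that any effect of the library block and any effect of training cannot be told apart in this comparison. What LD stands for is not stated. No label ties replicates to separate mice, so the p-values reflect the spread among libraries, which may be technical.

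Muscle adapts to repeated loaded running by changing fibre size, contractile protein isoforms, fuel handling and connective tissue. Fibres store glycogen and burn it through glycolysis, mitochondria oxidise fuels for endurance, and growth is set by the balance of factors such as insulin-like growth factor 1 and myostatin against ubiquitin ligases and autophagy, which break protein down. Connective tissue cells between the fibres make the collagens that carry force, and many muscle genes also follow the time of day and the feeding state.

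Library totals were 23743635 to 26869821 expected counts in LD and 22678556 to 27688842 in untrained muscle. Levels are CPM (counts per 1000000 of the TMM-scaled library), in the order of the replicates (1, 2, 3 for untrained and 4, 5, 6 for LD). The tissue label was matched by the skeletal muscle genes Myh4, Acta1 and Ckm, which were at 12955 CPM or more in all 6 libraries, whereas the heart gene Myh6 was at most 3.88 CPM and the liver gene Alb was at most 0.202 CPM. Alb was at 5.71 to 7.58 CPM in the first trained block, and the part of this in differences from that block was not tested. Mitochondrial transcripts made up 19.1% to 22.6% of LD and 18.3% to 19.97% of untrained counts. Untrained replicate 1 and LD replicate 5 lay farthest apart on the main axis of variation (first principal component, -39.12 and 39.12), while the other untrained libraries were at -1.18 and -3.25.

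Of 15181 genes tested, 757 (4.99%) were called at an adjusted p under 0.05 by edgeR's quasi-likelihood test with Benjamini-Hochberg adjustment over all genes, the test behind every adjusted p below. LD muscle was higher for 327 genes (2.15%) and lower for 430 (2.83%). Most changes were moderate: the median log2 fold change was 0.586 among genes called higher and -0.505 among those called lower, and 59 and 62 genes passed a 2-fold difference. The median over all genes was 0.01, and 51.2% lay above 0. In 753 of the 757 called genes the LD and untrained libraries did not overlap. Among all genes tested, all 3 LD libraries were above the untrained ones in 1907 (12.6%) and below them in 1922 (12.7%). Among genes called higher, 176 (53.8%) had all 3 LD libraries above each of the other 12 libraries of the series, against 403 (2.65%) of all genes tested. Among genes called lower, 273 (63.5%) had all 3 LD libraries below the other 12, against 486 (3.2%) of all genes. These shares describe how many called genes set the LD libraries apart from every group, the first trained block included.

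The number of calls depended on single libraries. It was 288 without LD replicate 5, 386 without untrained replicate 1, 403 without LD replicate 4 and 437 without LD replicate 6, and 148 without both LD replicate 5 and untrained replicate 1. All 757 kept their direction when those 2 were left out. Of 95 named and called genes, 64 lost their call without both, and 86 when LD and the first trained block were joined. In that joined group of trained libraries, 29 genes were called, 16 higher and 13 lower.

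**Figure D1:**
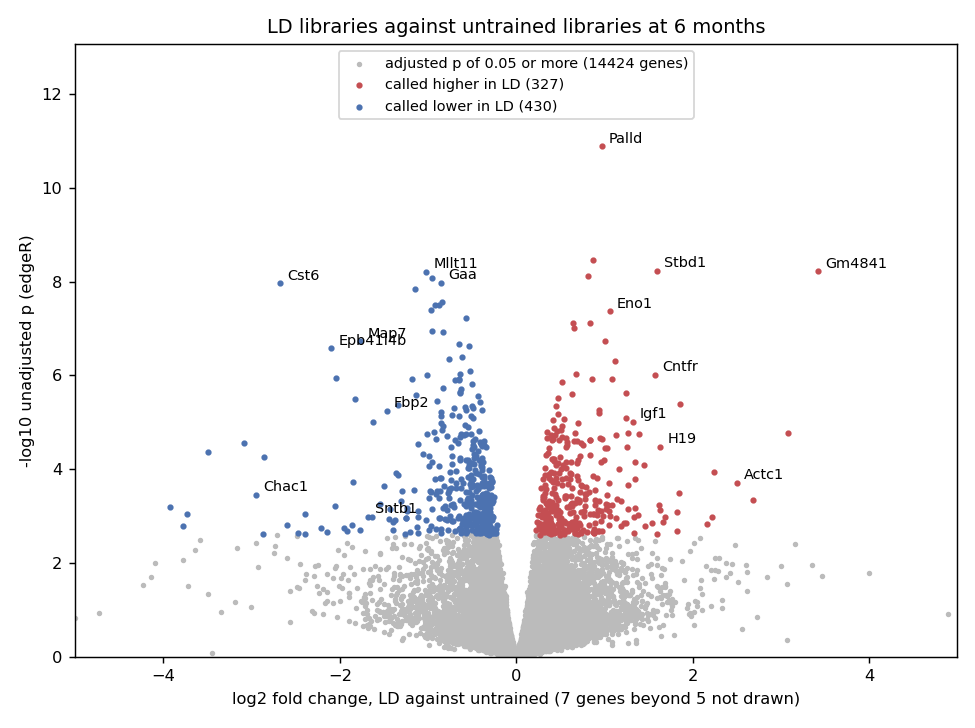
Each point is 1 gene of the 15181 tested (7 beyond a log2 fold change of 5 are not drawn), with the log2 fold change of LD against untrained muscle on the x axis and -log10 of the unadjusted p on the y axis. The 327 genes called higher are red and the 430 called lower are blue, and Palld, Stbd1, Cst6, Mllt11 and Gaa stand near the top.

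The 12 largest rises were taken among called genes that had a mean log2 CPM of 2 or more, groups that did not overlap and a symbol that is no clone or model name. Actc1, the actin of heart and of developing skeletal muscle, was at 4.86, 1.06 and 2.66 CPM against 20.7, 15.7 and 11.6 CPM, a 5.65-fold rise (log2 2.5 ± 0.48 SE, adjusted p = 0.0117), with all 3 LD libraries above every other library. Actc1 shares most of its coding sequence with the far more abundant Acta1, so the split of reads between them is uncertain. Acta1, the adult skeletal actin, itself rose by 0.33 ± 0.07 on the log2 scale (adjusted p = 0.00721), from 18906, 19451 and 19277 CPM to 24987, 24447 and 22951 CPM. Without both LD replicate 5 and untrained replicate 1, Acta1 was not called (adjusted p = 0.089).

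H19, a maternally expressed imprinted long noncoding RNA on chromosome 7, was at 134, 245 and 205 CPM in untrained muscle and at 533, 680 and 597 CPM in LD muscle. The groups did not overlap, and the rise was 3.1-fold (log2 1.63 ± 0.24, adjusted p = 0.00359). Stbd1, which tethers glycogen to membranes for its breakdown in lysosomes, was at 14.9, 20.6 and 15.4 CPM against 54.3, 51 and 48.1 CPM. It rose 3.01-fold (log2 1.59 ± 0.15, adjusted p = 1.8e-05), and its lowest LD library was above the highest of the other 12, which reached 27.8 CPM. Cntfr, the receptor subunit for ciliary neurotrophic factor, rose 2.98-fold from 7.61, 6.02 and 3.84 CPM to 17, 16 and 19.1 CPM (log2 1.57 ± 0.22, adjusted p = 0.00044). Pak1, a kinase downstream of the small GTPases Rac and Cdc42, rose 2.74-fold from 31.4, 27.4 and 22.3 CPM to 84, 73.2 and 64.8 CPM (adjusted p = 0.00659; 0.0631 without both LD replicate 5 and untrained replicate 1). Every LD library of these 4 genes was above every untrained, first-block and 9-month library.

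Other rises in this set included Mettl21e, a muscle lysine methyltransferase (log2 1.6, adjusted p = 0.0479), Pdzd7 (1.39, adjusted p = 0.00269), Sh2d4a (1.38, adjusted p = 0.0302), the imprinted Peg10 (1.35, adjusted p = 0.024), Igfbp5 (1.33, adjusted p = 0.0476) and Igf1 (1.32, adjusted p = 0.00186). Of the 23 genes reported among those with the largest changes in either direction, 13 were called whichever of the 6 libraries was left out. The others among the rises described were Mettl21e, with 5 of 6 calls lost (adjusted p up to 0.145), Igfbp5, with 6 lost (up to 0.171), Peg10, with 4 lost (up to 0.102), and Sh2d4a, lost without LD replicate 4, LD replicate 5 or untrained replicate 1 (up to 0.125). Pdzd7 and Igf1 kept their calls in each single leave-out and were at adjusted p = 0.055 and 0.0524 without both LD replicate 5 and untrained replicate 1.

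Palld had the smallest adjusted p of all genes, 1.9e-07, and was named after its values were seen. It encodes palladin, which cross-links actin filaments. Palld was at 82.7, 78.3 and 77.4 CPM in untrained and at 162, 151 and 153 CPM in LD libraries, while the other 9 libraries held 77.6 to 95.9 CPM. The rise was 1.95-fold (log2 0.97 ± 0.06). Trim35, a ubiquitin ligase chosen in the same way, rose 1.83-fold from 181, 152 and 164 CPM to 313, 281 and 316 CPM (adjusted p = 1.8e-05). Both genes set the LD libraries apart from all other groups.

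**Figure D2:**
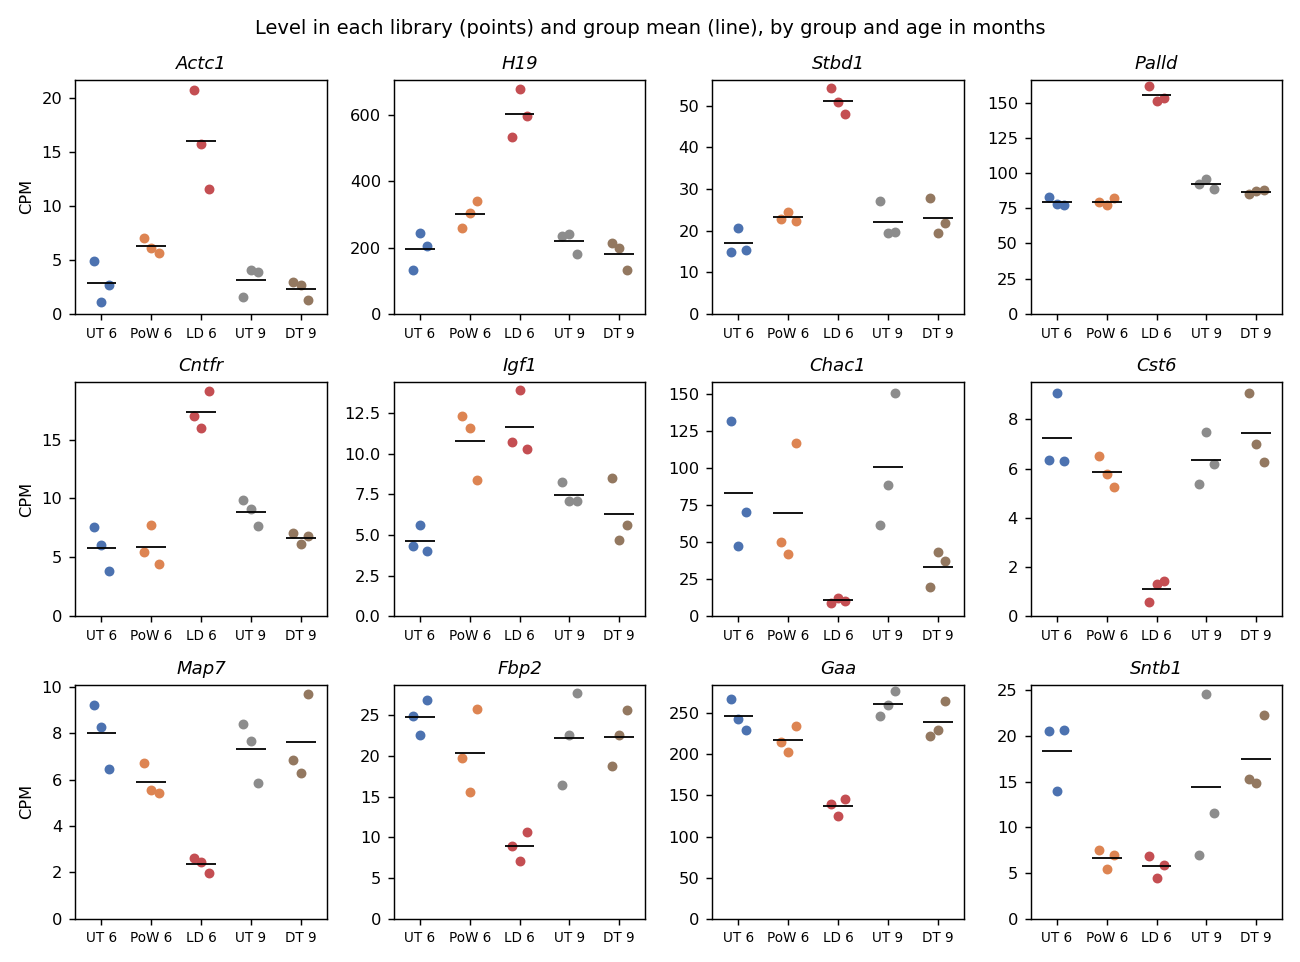
CPM (y axis, from 0) of 12 genes in each of the 15 libraries, shown as points with the group mean as a line: untrained (UT), first trained block (PoW) and LD at 6 months, untrained and detrained (DT) at 9 months. LD points lie apart from all other groups for Stbd1, Palld, Cntfr, Cst6, Map7, Fbp2 and Gaa, while Igf1 and Sntb1 have LD and first-block points at like levels.

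The largest falls began with Chac1, which breaks down glutathione and is induced through the stress factor Atf4. Chac1 was at 132, 47.7 and 70.7 CPM in untrained muscle and at 9.21, 12.6 and 10.4 CPM in LD muscle. The highest LD library was below the lowest of the other 12, which was at 19.9 CPM, and the fall was 7.72-fold (log2 -2.95 ± 0.56, adjusted p = 0.0169). Untrained libraries varied widely for this gene, and its call was lost without untrained replicate 1 or without any 1 LD library (adjusted p 0.0529 to 0.0667). Cst6, a secreted inhibitor of cysteine proteases, was at 6.36, 9.09 and 6.33 CPM against 0.6, 1.31 and 1.45 CPM, a 6.42-fold fall (log2 -2.68 ± 0.27, adjusted p = 1.8e-05). All 12 other libraries held 5.26 CPM or more of Cst6, and its call held in each of the 6 leave-outs.

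Epb41l4b, a FERM domain protein of the kind that links membranes to actin, fell 4.3-fold from 7.95, 10.7 and 7.2 CPM to 1.2, 2.81 and 1.98 CPM (adjusted p = 0.00015). Map7, which binds microtubules and recruits the kinesin motor that positions nuclei in muscle fibres, fell 3.41-fold from 9.24, 8.28 and 6.46 CPM to 2.61, 2.44 and 1.98 CPM (adjusted p = 0.00012). Sntb1, a syntrophin of the dystrophin complex, fell 3.21-fold from 20.5, 14 and 20.7 CPM to 6.85, 4.42 and 5.93 CPM (adjusted p = 0.0313). The first trained block held Sntb1 at 7.49, 5.4 and 6.97 CPM, so that all 6 libraries titled trained were below all 3 untrained ones of 6 months. Tekt1, named for tektin filaments of cilia, fell 3.08-fold from 3.87, 5.94 and 4.67 CPM to 1.8, 1.39 and 1.53 CPM (adjusted p = 0.00186).

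Fbp2, the fructose-1,6-bisphosphatase of muscle, which runs against glycolysis toward glycogen, fell 2.78-fold from 24.9, 22.5 and 26.9 CPM to 8.99, 7.12 and 10.6 CPM (log2 -1.47 ± 0.21, adjusted p = 0.00131). No LD library overlapped with any of the other 12, whose lowest value was 15.6 CPM. The sugar-binding Lgals4 (log2 -1.83, adjusted p = 0.00092), Exph5 (-1.44, adjusted p = 0.0328), the glucose transporter Slc2a3 (-1.40, adjusted p = 0.0355), Acss1, which makes acetyl-CoA from acetate in mitochondria (-1.37, adjusted p = 0.0341), and the zinc finger gene Zfp783 (-1.36, adjusted p = 0.00868) completed the 12. Calls were lost in at least 1 leave-out for Sntb1 (5 of 6, adjusted p up to 0.134), Exph5 (5, up to 0.127), Slc2a3 (4, up to 0.124), Acss1 (5, up to 0.137) and Zfp783 (only without LD replicate 5, 0.0561).

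**Figure D3:**
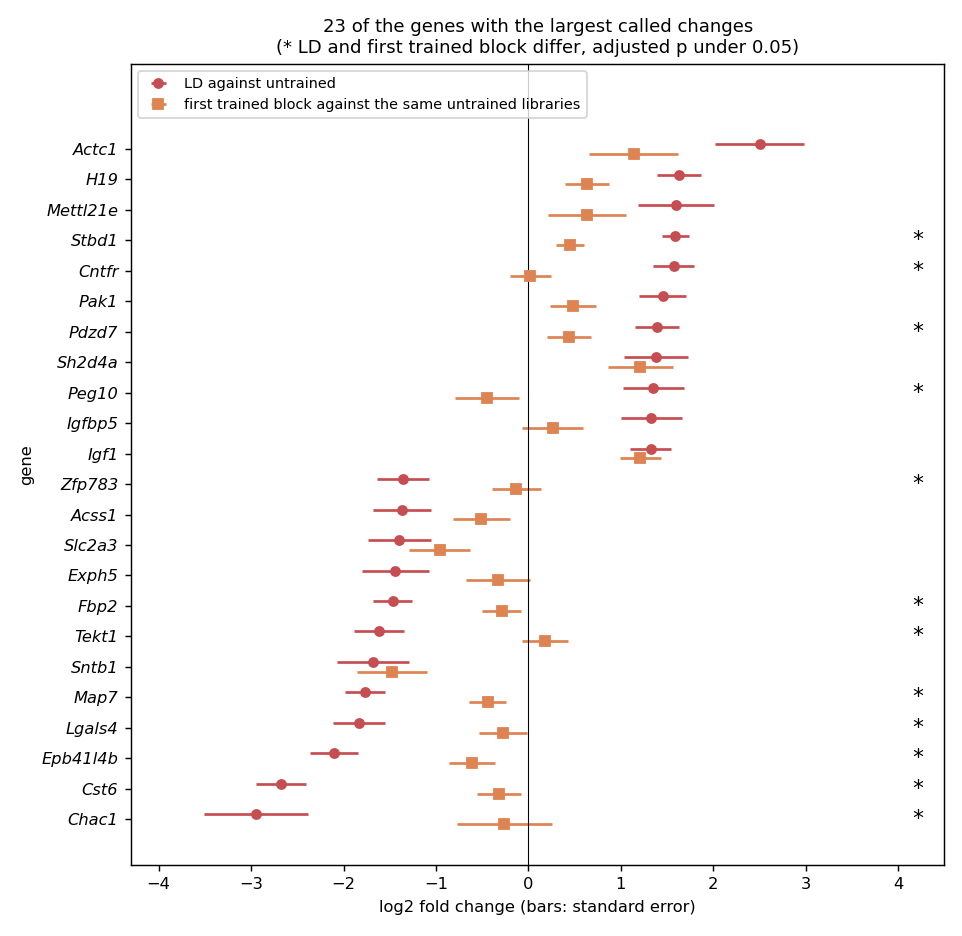
Log2 fold change (x axis) with its standard error for 23 of the genes with the largest called changes (y axis), in LD against untrained muscle (circles) and in the first trained block against the same untrained libraries (squares); a star marks genes whose LD and first-block levels differed at an adjusted p under 0.05. Chac1 is at -2.95 in LD and -0.26 in the first block, and Igf1 is at 1.32 and 1.21.

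Atf4 binds composite elements that join part of an Atf site to part of a C/EBP site, and Chac1 and Vldlr, the very low density lipoprotein receptor, are known Atf4 targets. Both fell in LD muscle, and the window shown for each is one that holds a match to the motif below. The other Vldlr window, before its upstream start, and both windows of Atf5, the other called gene on the Atf4 list, hold no match. The 250 bases before a start site listed by RefSeq (build GRCm38.p6) are given 5′ to 3′ on the strand of the gene, with capitals marking TGATGNAA read on either strand. The Chac1 window is chr2:119350992-119351241 on the plus strand, and the Vldlr window, which lies before the downstream of its 2 listed starts, is chr19:27216770-27217019 on the plus strand.
Chac1: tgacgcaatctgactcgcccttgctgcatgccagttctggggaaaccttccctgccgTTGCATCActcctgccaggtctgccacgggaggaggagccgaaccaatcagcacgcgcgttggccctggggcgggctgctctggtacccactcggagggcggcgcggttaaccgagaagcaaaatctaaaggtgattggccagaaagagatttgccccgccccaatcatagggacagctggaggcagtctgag
Vldlr: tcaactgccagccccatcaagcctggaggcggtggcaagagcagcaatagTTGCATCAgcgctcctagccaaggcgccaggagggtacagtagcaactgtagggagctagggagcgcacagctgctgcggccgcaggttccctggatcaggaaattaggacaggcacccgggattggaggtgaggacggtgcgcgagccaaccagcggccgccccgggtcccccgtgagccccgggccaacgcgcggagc
The match begins 193 bases before the start in Chac1 and 200 bases before it in Vldlr, on the minus strand in both. Of 32851 promoter windows of this length, 3.45% hold such a match, and among 25 windows of 21 Atf4 target genes on a list chosen after values were seen, 7 do (Chac1, Vldlr, Asns, Fgf21, Nupr1, Pck2 and Slc7a11). A match describes the letters only.

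Of 20 tested genes on that list, 3 fell and none rose, against 2.83% lower among all genes, with a list median of -0.18. Vldlr was at 726, 564 and 656 CPM in untrained and at 443, 419 and 505 CPM in LD libraries (log2 -0.51 ± 0.11, adjusted p = 0.0107), without overlap. Atf5, a factor related to Atf4, was at 89.6, 105 and 123 CPM against 60.4, 60.5 and 63.7 CPM (log2 -0.78 ± 0.18, adjusted p = 0.0256). Mthfd2, a mitochondrial folate enzyme, had a log2 fold change of -1.01 (adjusted p = 0.0514), whereas the stress factor Ddit3 was at 0.12 (adjusted p = 0.845). Of the 7 genes with a motif match, only Chac1 and Vldlr were called, and Asns was at 0.54 (adjusted p = 0.639). Among the 20 tested genes, 6 lay above 0. Without both LD replicate 5 and untrained replicate 1, no gene of the list was called. Atf5 lost its call in 5 leave-outs (adjusted p up to 0.105) and Vldlr only without LD replicate 5 (0.0658).

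Of 18 tested genes of the growth factor and myostatin list, Igf1 and Igfbp5 rose and none fell, against 2.15% higher among all genes, with a list median of 0.07. Igf1, the main growth factor made by loaded muscle, was at 4.3, 5.63 and 4.02 CPM in untrained and at 10.7, 13.9 and 10.3 CPM in LD libraries. The groups were far apart, and the rise was 2.49-fold (log2 1.32 ± 0.22, adjusted p = 0.00186), which became 0.0524 without both LD replicate 5 and untrained replicate 1. The first trained block held 12.3, 11.6 and 8.41 CPM (log2 1.21 ± 0.22 against untrained, adjusted p = 0.074), and the 2 blocks differed by 0.11 (adjusted p = 0.885). Igfbp5, a binding protein of the insulin-like growth factors, was at 270.1, 414 and 336 CPM against 969, 838 and 751 CPM. Mstn, myostatin, the brake on muscle growth, was at 128, 99.8 and 72.9 CPM against 132, 92.1 and 81.3 CPM, with overlapping groups (log2 0.02 ± 0.27, adjusted p = 0.981). Vegfa, which drives vessel growth, also overlapped (log2 -0.24 ± 0.25, adjusted p = 0.657).

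Among 16 fast fibre genes, 4 rose and 2 fell, against 2.15% higher and 2.83% lower among all genes, with a median of -0.01. Mylk2, the kinase that phosphorylates the regulatory light chain of fast myosin, was at 781, 867 and 729 CPM in untrained and at 397, 316 and 367 CPM in LD libraries, a 2.2-fold fall (log2 -1.14 ± 0.15, adjusted p = 0.00079). Actn3, the alpha-actinin of fast Z-discs, fell 1.7-fold from 5599, 4971 and 4812 CPM to 3272, 2543 and 3231 CPM (adjusted p = 0.0137). In both, all LD libraries were below the other 12. Myl1, a fast myosin light chain, rose from 3780.1, 3398 and 3218 CPM to 5148, 4589 and 4695 CPM (log2 0.47 ± 0.08, adjusted p = 0.00143), and Casq1, the calcium store protein of fast fibres, rose by 0.46 ± 0.08 (adjusted p = 0.0026). Pvalb, which buffers calcium, rose by 0.28 (adjusted p = 0.0425), and lost its call in 5 leave-outs (up to 0.154).

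Of the myosin heavy chains, only Myh1 (type IIx) was called, from 12101, 10231 and 11705 CPM to 15721, 16909.8 and 13379 CPM (log2 0.43 ± 0.1, adjusted p = 0.0238). Its call was lost in 4 leave-outs (adjusted p up to 0.124), and Actn3 lost its call without LD replicate 5 or untrained replicate 1 (up to 0.0673; 0.175 without both). Myh4 (type IIb, log2 -0.15 ± 0.21, adjusted p = 0.746) and Myh2 (type IIa, 0.32 ± 0.23, adjusted p = 0.488) overlapped between the groups. The slow Myh7 ranged from 2.41 to 89.3 CPM in untrained and from 6.33 to 133 CPM in LD libraries (log2 0.17 ± 1.7, adjusted p = 0.975). Slow fibre genes had 1 rise of 14, against 2.15% higher among all genes: the LIM protein Fhl1 (0.36, adjusted p = 0.0466, lost in 5 leave-outs with up to 0.212). The slow fibre median of 0.16 turned to -0.09 without LD replicate 6, the library highest in Myh7, and to -0.11 without untrained replicate 1. Myom3, a myomesin of the M-band in fibres of intermediate type, was named after its values were seen and rose 2.06-fold from 132, 122 and 134 CPM to 258, 304 and 236 CPM (adjusted p = 0.0226; lost in 5 leave-outs, up to 0.0959).

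Beside the rise of Stbd1, several glycogen genes fell. The list of 20 glycogen handling genes was chosen after values were seen, and its counts are no independent evidence: 1 rose and 6 fell, against 2.15% and 2.83% of all genes, with a median of -0.09. Gaa, the lysosomal glucosidase whose loss causes Pompe disease, was at 267, 243 and 229 CPM in untrained and at 139, 125 and 146 CPM in LD libraries. The LD libraries were below all others, and the fall was 1.8-fold (log2 -0.85 ± 0.09, adjusted p = 1.8e-05). Epm2a, laforin, which removes phosphate from glycogen and is mutated in Lafora disease, fell 1.48-fold from 136, 136 and 130.5 CPM to 88.4, 87.2 and 95.8 CPM (adjusted p = 5.6e-05). The synthesis genes Gyg (glycogenin, the primer, log2 -0.28, adjusted p = 0.0182), Ugp2 (which makes UDP-glucose, -0.42, adjusted p = 0.0201), Gys1 (glycogen synthase, -0.32, adjusted p = 0.0362) and Ppp1r3a (its phosphatase targeting subunit, -0.34, adjusted p = 0.0454) fell by less. Without both LD replicate 5 and untrained replicate 1, 1 gene was still called higher and 2 lower. Calls of Gyg, Ugp2, Gys1 and Ppp1r3a were lost in 2, 3, 4 and 5 leave-outs (adjusted p up to 0.0891, 0.0817, 0.168 and 0.223). Tfeb, a master factor of lysosome genes outside this list, was named after its values were seen and fell from 76.8, 71.4 and 81.7 CPM to 49.8, 47.7 and 49 CPM (log2 -0.65 ± 0.09, adjusted p = 0.00046).

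Of 19 tested genes on a list of glycolysis and glycogen enzymes, 2 rose and 3 fell (Fbp2, Gys1 and Pfkm), against 2.15% and 2.83% of all genes, with a median of -0.03. Ldha, which turns pyruvate to lactate, was at 1662, 1649 and 1531 CPM against 2221, 1923 and 2254 CPM (log2 0.4 ± 0.07, adjusted p = 0.00305), and Pgam2, the muscle phosphoglycerate mutase, rose by 0.37 ± 0.08 (adjusted p = 0.0102). Pfkm, the muscle phosphofructokinase, fell from 2709, 2829 and 2483 CPM to 2170.4, 1997 and 2060 CPM (log2 -0.36 ± 0.07, adjusted p = 0.00347; 0.0662 without both LD replicate 5 and untrained replicate 1). LD libraries of Ldha and Pfkm lay outside all other libraries, while Pgam2 lost its call without LD replicate 4 or untrained replicate 3 (up to 0.056). Pfkfb4, which makes the activator of phosphofructokinase, fell 1.86-fold (adjusted p = 0.00097), and Eno1, the ubiquitous enolase, rose 2.08-fold from 32.1, 24 and 25.6 CPM to 52.6, 59.9 and 57.5 CPM (adjusted p = 4.3e-05). Both were named after their values were seen. The table also lists Eno1b, a near-identical copy, so the level of Eno1 is uncertain, and the muscle enolase Eno3, with means of 3112 CPM in untrained and 2844 CPM in LD muscle, was not called (log2 -0.13 ± 0.08, adjusted p = 0.378).

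Among 32 tested genes of the collagen and matrix list, 12 rose and none fell, against 2.15% higher among all genes, with a median of 0.57 against 0.01 over all genes. Their summed level was 874, 966 and 985 CPM in untrained and 1262, 1569 and 1300.4 CPM in LD libraries. Col4a1, a chain of basement membrane collagen, was at 70.4, 58.9 and 71.9 CPM against 94.6, 94.6 and 99.6 CPM (log2 0.52 ± 0.09, adjusted p = 0.00294), and its partner Col4a2 rose by 0.5 ± 0.09 (adjusted p = 0.00248). Col5a2, of fibrillar collagen V, rose 1.96-fold from 7.57, 6.4 and 8.51 CPM to 14.5, 17.8 and 11.8 CPM (adjusted p = 0.00305; 0.058 without both LD replicate 5 and untrained replicate 1). Mmp2, a gelatinase, was at 18.1, 18.3 and 20.3 CPM against 24.6, 40.9 and 28 CPM (log2 0.73 ± 0.16, adjusted p = 0.0154; up to 0.0878 in the 2 leave-outs that lost the call). Col5a3, Col6a1, Col6a2, the glycoprotein Fn1, the laminin chain Lamb1, the proteoglycans Dcn and Lum and the protease inhibitor Timp2 made up the rest, with log2 fold changes from 0.34 (Dcn) to 0.98 (Lum), and each lost its call in 2 to 5 leave-outs. The fibrillar Col1a1 (0.96, adjusted p = 0.176) and Col3a1 (1.14, adjusted p = 0.054) had changes as large with wider errors.

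The first trained block held the matrix list at 1178 to 1503 CPM, against 1262 to 1569 CPM in LD libraries, and its list median against untrained was 0.6. Untrained libraries of 9 months held 1050 to 1193 CPM, also above the 874 to 985 CPM of untrained libraries of 6 months. Among the 12 called genes, the difference between LD and first block ranged from -0.10 (Col6a1) to 0.18 (Col6a2), and no gene of the list differed at an adjusted p under 0.05. The number of matrix genes called fell from 12 to 3 without LD replicate 5, the library with the highest sum, to 6 without untrained replicate 1, the lowest, to 7 without LD replicate 6, and to 2 without both LD replicate 5 and untrained replicate 1, where the median was 0.38. In whole muscle, more cells of a type and more RNA per cell cannot be told apart.

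Markers of the matrix-making cells moved with these genes. Of the 14 tested fibro-adipogenic progenitor markers (these progenitors lie between the fibres), 6 rose and none fell, against 2.15% higher among all genes, with a median of 0.37 and all 14 above 0. Pdgfra, their defining receptor, was at 17.4, 16.6 and 19.5 CPM against 29, 30.9 and 25.1 CPM (log2 0.67 ± 0.12, adjusted p = 0.00269; 0.0567 without both LD replicate 5 and untrained replicate 1). Smoc2, Cd34 and Clec3b rose as well, and Dcn and Lum belong to both lists. The number of calls was 1 without LD replicate 5, 2 without untrained replicate 3, 3 without LD replicate 4 and 0 without both LD replicate 5 and untrained replicate 1, where the median was 0.37. Tendon genes had a median of 0.51 with no calls among 12, endothelial markers 0.28 with none among 14, and vessel wall markers 0.27 with none among 11. Of 15 macrophage and leukocyte markers, all lay above 0, against 51.2% of all genes, with a median of 0.59. Lyz2, the lysozyme of macrophages, was the 1 call, against 2.15% higher among all genes. It rose from 19.6, 18.8 and 21.7 CPM to 33.2, 39.98 and 28.4 CPM (log2 0.76 ± 0.14, adjusted p = 0.00344, and 0.075 without both LD replicate 5 and untrained replicate 1). The summed level of the leukocyte list was 82.3 to 98.7 CPM in untrained and 131 to 155 CPM in LD libraries. In the first trained block against the same untrained libraries, all 15 leukocyte and all 14 progenitor markers also lay above 0 (medians 0.48 and 0.3). The untrained libraries of 9 months were above those of 6 months as well. They held 108 to 121 CPM of leukocyte markers. For progenitor markers they held 1069.7 to 1218 CPM, against 915 to 1062 CPM in untrained and 1123 to 1269.6 CPM in LD libraries of 6 months. No member of either list differed between the blocks at an adjusted p under 0.05.

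Markers of some other cell types were high in single libraries. Among all genes 4.99% were called, so the absence of calls in lists this short says little. Schwann cell markers summed to 52.6, 56.6 and 62.3 CPM in untrained and to 70.1, 181 and 73.8 CPM in LD libraries, with LD replicate 5 far above the rest. The myelin gene Mbp was at 43.3 CPM there and at 16.2 and 20.1 CPM in the other LD libraries, and none of 10 markers was called. The list median of 0.75 was 0.26 without LD replicate 5. Red cell genes summed to 504, 695 and 3113 CPM in LD libraries, with replicate 6 highest, against 326 to 893 CPM in untrained ones. Their median of 1.12 turned to -0.16 without that library, and none of 5 was called. Adipocyte markers had no call among 9 and a median of -0.20, which ranged over leave-outs from -0.56 to 0.05. Of the 9, only 1 lay above 0, against 51.2% of all genes. Their summed level, which the most abundant members set, went the other way, from 2917, 2587 and 2013 CPM in untrained libraries. It was 3488, 2941 and 3052 CPM in LD libraries, without overlap, so the sum does not describe most of these markers. The part of nerve, blood or fat RNA in the calls above was not tested.

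**Figure D4:**
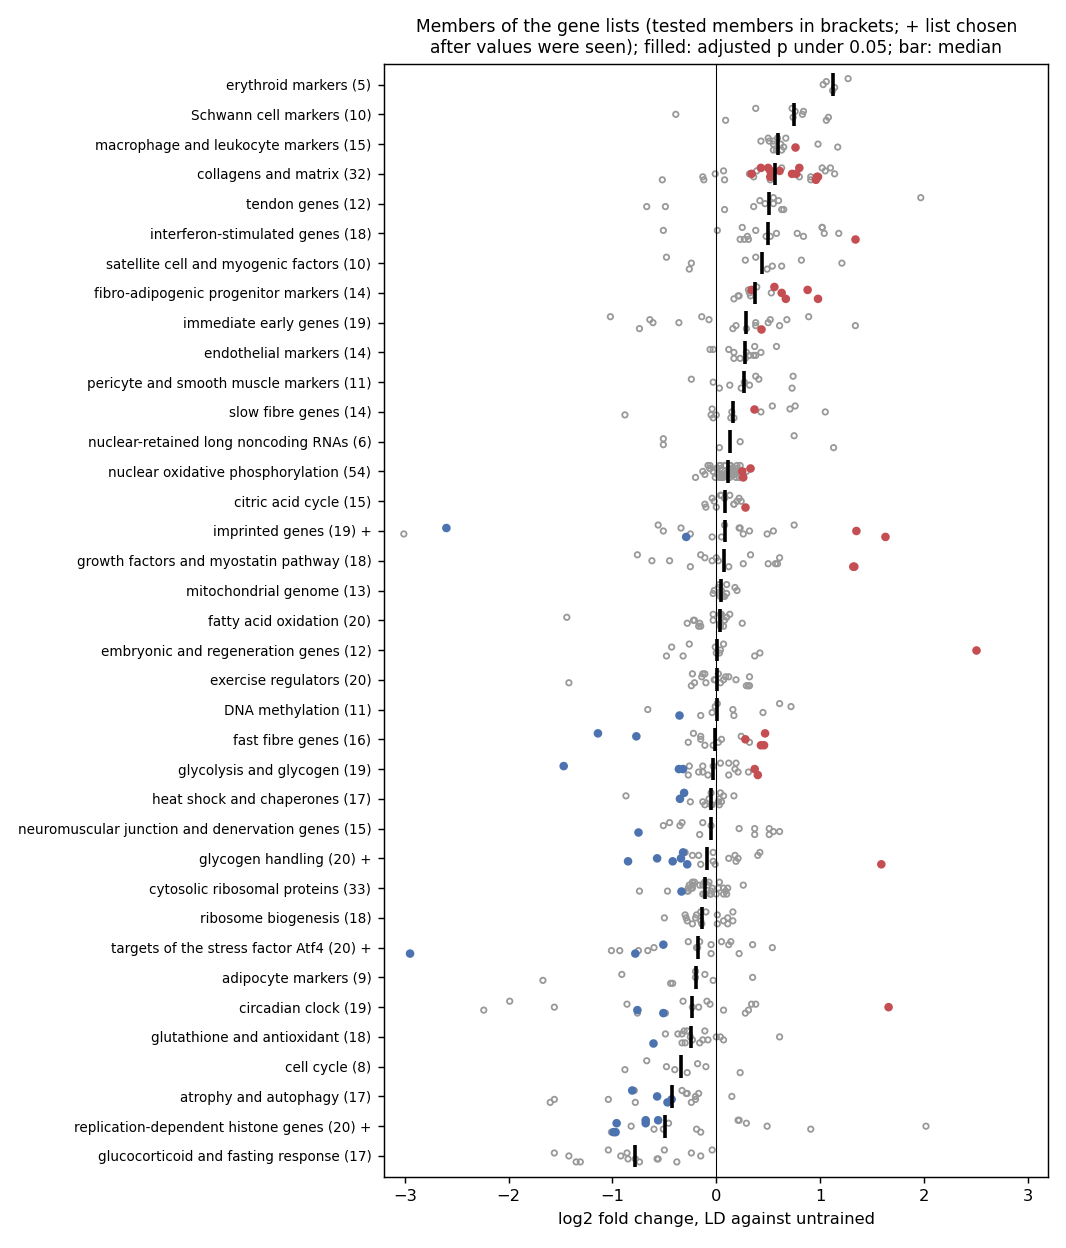
Log2 fold change of LD against untrained muscle (x axis) for the tested members of each gene list (rows, number tested in brackets, a plus sign for lists chosen after values were seen), with called members filled red (higher) or blue (lower) and the list median as a bar. The matrix list has 12 filled points, all above 0, and the 17 glucocorticoid genes have none filled and all lie below 0.

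Of 17 atrophy and autophagy genes, 4 fell and none rose, against 2.83% lower among all genes, with a median of -0.43. The median was -0.27 without untrained replicate 1 and -0.18 without both that library and LD replicate 5. Mean log2 CPM of the list, less the untrained mean, was 0.5, -0.49 and -0.02 in untrained libraries. In LD libraries it was -0.29, -0.63 and -0.43, so untrained replicate 2 lay within the LD range. Bnip3l, a receptor that marks mitochondria for autophagy, was at 63.6, 57.6 and 59.4 CPM against 43.9, 44.6 and 45.8 CPM (log2 -0.43 ± 0.08, adjusted p = 0.00569), and its relative Bnip3 fell by 0.47 ± 0.11 on the log2 scale (adjusted p = 0.0221). Sqstm1, the autophagy cargo adaptor p62, was at 627, 551 and 551 CPM against 398, 343 and 421 CPM (log2 -0.57, adjusted p = 0.0383), and Fbxo21, a ubiquitin ligase subunit, fell by 0.81 (adjusted p = 0.0335). Bnip3l was called in every leave-out, while Bnip3, Fbxo21 and Sqstm1 lost their calls in 4, 5 and 6 of them (adjusted p up to 0.108, 0.141 and 0.155), and none of the 4 was called without both LD replicate 5 and untrained replicate 1.

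The muscle ubiquitin ligases that define atrophy were highest in untrained replicate 1. Trim63, MuRF1, was at 1278, 151 and 330.1 CPM in untrained and at 242, 136 and 218 CPM in LD libraries, with overlapping groups (log2 -1.56 ± 0.77, adjusted p = 0.296). Fbxo32, atrogin-1, was at 1671, 377 and 1197 CPM against 393, 320 and 357 CPM (log2 -1.60 ± 0.52, adjusted p = 0.119). Targets of the glucocorticoid receptor and of fasting showed the same library: none of 17 was called, against 4.99% of all genes. All 17 had a log2 fold change below 0, whereas 51.2% of all genes lay above 0. Their median of -0.78 became 0.04 without untrained replicate 1. Pdk4, which shuts pyruvate out of the mitochondria in fasting, was at 6132, 627 and 2962 CPM in untrained and at 1512, 473 and 1647 CPM in LD muscle. The heat map of list means by library shows this list high in untrained replicate 1 and low in untrained replicate 2, LD replicate 5 and detrained replicate 1.

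**Figure D5:**
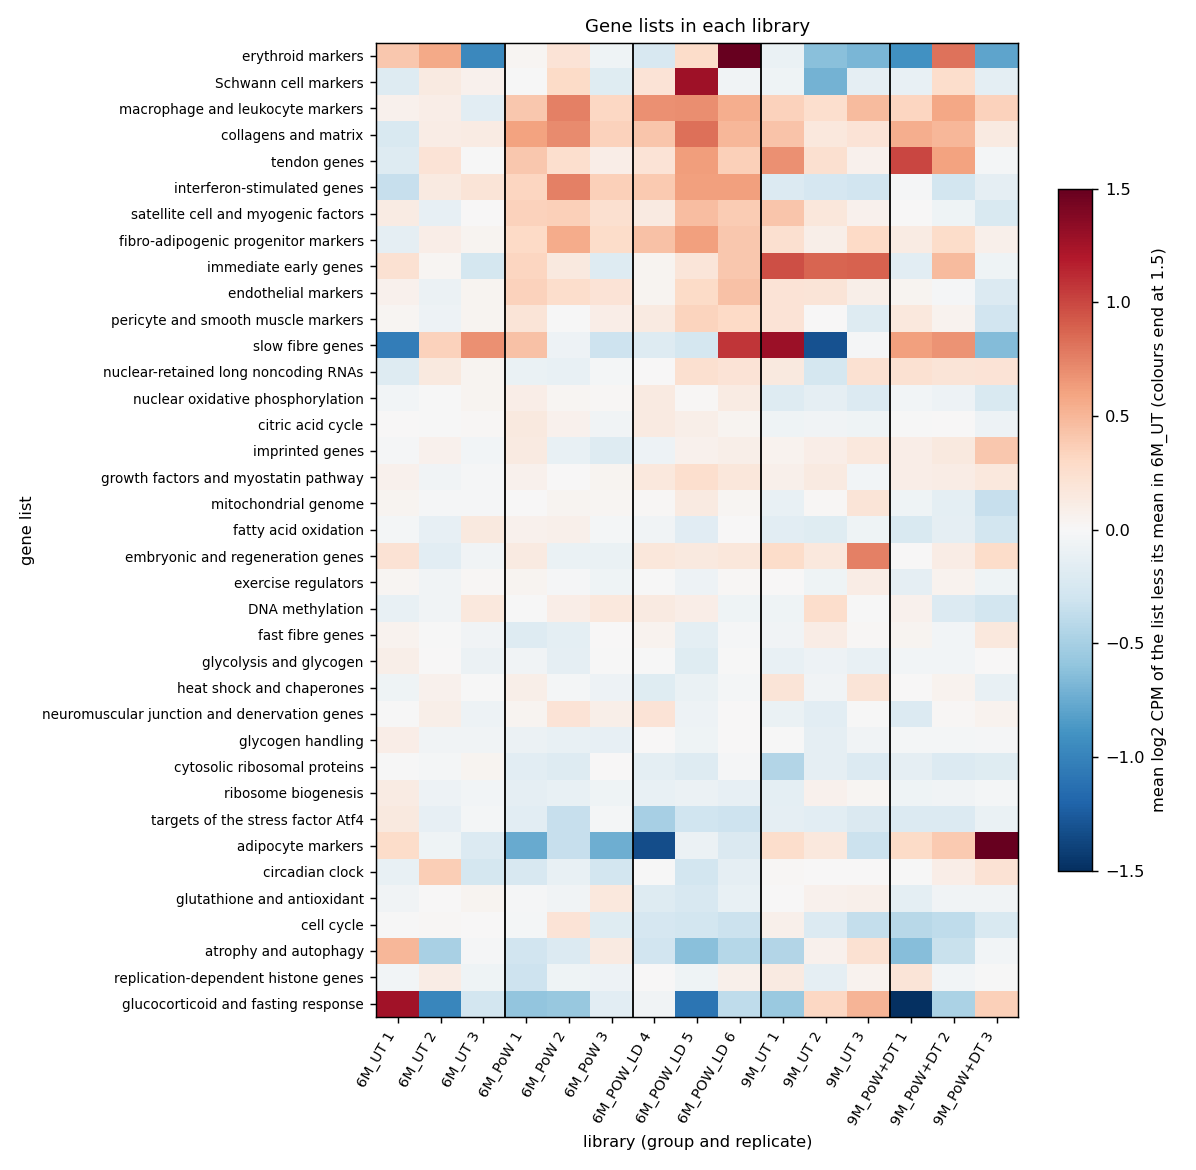
Colour gives the mean log2 CPM of each gene list (rows) in each library (columns, 5 groups divided by lines) less its mean in the untrained libraries of 6 months; red is higher and blue lower, and colours end at 1.5. Untrained replicate 1 is high for the glucocorticoid list, LD replicate 5 for Schwann cell markers and LD replicate 6 for red cell markers, while matrix and leukocyte lists are red in all 3 LD columns.

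Of 19 tested clock genes, 1 rose and 2 fell, against 2.15% and 2.83% of all genes, with a median of -0.23. Rora, a nuclear receptor of the clock's stabilising loop, fell by 0.51 ± 0.13 (adjusted p = 0.032), and Npas2, a partner of Bmal1, rose from 1.81, 0.212 and 1.44 CPM to 2.91, 3.75 and 4.11 CPM (log2 1.66 ± 0.44, adjusted p = 0.036). Rora and Npas2 lost their calls in 3 and 4 leave-outs (adjusted p up to 0.13 and 0.113). The strongly rhythmic outputs followed untrained replicate 2: Dbp was at 9.2, 115 and 9.69 CPM in untrained and at 17.9, 16 and 11.5 CPM in LD libraries, and Per2 at 9.97, 26.6 and 2.27 CPM against 5.95, 1.46 and 2.5 CPM. Neither was called (adjusted p = 0.362 and 0.159), and the list median was 0.01 without that library.

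Oxidative genes were shifted by little. Of 54 nuclear genes of the respiratory complexes, 44 (81.5%) lay above 0, against 51.2% of all genes, with a median of 0.11. Of these, 3 rose, against 2.15% of all genes: Ndufb7 (0.33, adjusted p = 0.0317), Cyc1 (0.26, adjusted p = 0.0362) and Ndufa4 (0.25, adjusted p = 0.0397), of complexes I, III and IV. All 3 lost their calls in 4 or more leave-outs (adjusted p up to 0.154). Cs, citrate synthase, the marker enzyme of mitochondrial content, was at 816, 798 and 799 CPM against 1003, 998 and 934 CPM, above all other libraries (log2 0.28 ± 0.06, adjusted p = 0.0135), and lost its call without LD replicate 4 or LD replicate 5 (up to 0.0613). The 13 protein genes of the mitochondrial genome (median 0.05), 20 genes of fatty acid oxidation (0.04) and 20 regulators of the exercise response (0.01) held no call. Ppargc1a, the coactivator of mitochondrial growth, was at 45.8, 59.6 and 43.1 CPM against 83.4, 47.2 and 50.9 CPM (log2 0.29 ± 0.39, adjusted p = 0.741).

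Rpl4, of the large ribosomal subunit, was the single call among 33 ribosomal protein genes (median -0.11), at 490.3, 443 and 466 CPM against 368, 368 and 370.3 CPM (log2 -0.34 ± 0.06, adjusted p = 0.00359; 0.0736 without both LD replicate 5 and untrained replicate 1). Among all genes, 2.83% were called lower, the share to set beside each list of this paragraph. Of 17 chaperones, the Hsp90 gene Hsp90ab1 (log2 -0.31, adjusted p = 0.0134) and Hsph1 (-0.35, adjusted p = 0.0315) fell. Both lost their calls without untrained replicate 1 or LD replicate 6, and Hsph1 also without untrained replicate 2 or 3 (up to 0.0664 and 0.134). Of 18 antioxidant genes, Nqo1, a classic target of the factor Nrf2, was at 17.4, 18.1 and 18.1 CPM against 9.51, 12.4 and 13.2 CPM (log2 -0.61 ± 0.13, adjusted p = 0.0119; 0.0597 without LD replicate 4). Ribosome biogenesis (18 tested) and cell cycle genes (8 tested of 13 listed) held no call. The acetylcholine receptor subunit Chrnb1 fell 1.68-fold from 34.6, 24.6 and 23.5 CPM to 14.9, 17 and 17.2 CPM (adjusted p = 0.00836, and 0.0931 without those 2 libraries), the single call among 15 genes of the nerve-muscle junction. Satellite cell and myogenic genes held no call among 10; Myod1, the myogenic master factor, was at 15, 18 and 15.9 CPM against 27.9, 38.1 and 47.1 CPM (log2 1.21 ± 0.39, adjusted p = 0.112).

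Interferon-stimulated genes were mostly above 0, in 17 of 18, against 51.2% of all genes, with a median of 0.5. In the first trained block against the same untrained libraries, all 18 lay above 0, with a median of 0.45. No member differed between the blocks at an adjusted p under 0.05. Gbp3, a guanylate-binding protein, was the 1 call, against 2.15% higher among all genes. It rose from 1.81, 2.51 and 1.79 CPM to 3.73, 6.14 and 5.69 CPM (log2 1.34 ± 0.28, adjusted p = 0.0104, and 0.0613 without LD replicate 5). A further family of interferon-inducible GTPases on chromosome 18 was named after values were seen. Gm4841 rose 10.7-fold from 0.817, 1.1 and 0.873 CPM to 9.51, 14 and 6.53 CPM (log2 3.42 ± 0.33, adjusted p = 1.8e-05). F830016B08Rik was at 11.6, 11.9 and 11.2 CPM against 120.3, 45.6 and 56.1 CPM (adjusted p = 0.0198), and BC023105 rose 3.61-fold from 34.2, 18.6 and 20.1 CPM to 89.6, 98.1 and 75.3 CPM (adjusted p = 0.00112). The LD libraries of all 3 were above the other 12. The family has closely similar members, so reads may be split among them, and F830016B08Rik lost its call in 4 leave-outs (up to 0.0779).

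The lists of imprinted and of histone genes were chosen after values were seen. Of 19 imprinted genes, H19 and Peg10 rose, against 2.15% of all genes. Nnat (log2 -2.6, adjusted p = 0.0388, lost in all 6 leave-outs with up to 0.139) and Gnas (-0.29, adjusted p = 0.0173, lost in 2 with up to 0.0738) fell, against 2.83% of all genes. Igf2, the neighbour of H19, was at 13.8, 12.1 and 13.5 CPM against 12.2, 18 and 17.1 CPM, with overlapping groups (log2 0.26 ± 0.16, adjusted p = 0.399). Of 20 replication-dependent histone genes, 6 fell and none rose, against 2.83% lower among all genes, with a median of -0.49. Of the 20, 7 lay above 0, and the median was -0.16 to -0.38 with 1 library left out. The mean log2 CPM of the list in LD libraries, less its mean in untrained ones, was 0.01, -0.07 and 0.08. H2bc6 was at 17.6, 23.6 and 20.5 CPM against 8.65, 11 and 11.4 CPM (log2 -0.99 ± 0.19, adjusted p = 0.00504), and H2ac18 at 45, 44.9 and 55.1 CPM against 27, 29.2 and 34.2 CPM (log2 -0.68 ± 0.14, adjusted p = 0.0117; up to 0.0603 without LD replicate 4 or 5). Histone transcripts of this class mostly lack a poly(A) tail and lie in dense, similar clusters, and the part of RNA selection in these values was not tested. Without LD replicate 5 the list held 1 call lower and 1 higher.

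Set beside the first trained block, which shares the untrained libraries with this comparison, LD muscle gave many more calls. The first block had 0 genes called against untrained (0.0%) by edgeR, while 1564 passed an unadjusted p of 0.05 and the smallest adjusted value was 0.074. DESeq2 called 134 genes in that comparison and limma-voom 0. Tested directly, LD and the first block differed in 365 genes (2.4%), with 195 (1.28%) higher and 170 (1.12%) lower in LD. By the same rule of choice the largest differences from the first block included Peg10, Cntfr and Tceal7 upward and Chac1, Cst6, Tekt1 and Rasd2 downward. Tceal7 was at 25.7, 24.5 and 19.6 CPM in LD, at 16.2, 14.6 and 12.4 CPM in untrained and at 10.1, 8.28 and 7.87 CPM in first-block libraries, so the 2 trained blocks lay on opposite sides of untrained muscle. It was higher in LD than in untrained muscle (log2 0.69 ± 0.14, adjusted p = 0.0062) and than in the first block (1.41, adjusted p = 3.7e-05). Palld, Trim35, Eno1 and Mylk2 were at untrained levels in the first block (log2 0.01, -0.09, -0.01 and -0.11) and differed between the blocks (0.96, 0.97, 1.07 and -1.03, adjusted p at most 0.00224). For Sntb1 the blocks differed by -0.21 ± 0.4 (adjusted p = 0.893), and for Igf1 by 0.11 ± 0.21 (adjusted p = 0.885).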

How the data were processed

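RNA sequencing of mouse plantaris gave 15 libraries, of which 3 LD and 3 untrained libraries of 6 months were compared. Expected counts for each gene, which need not be whole, are the values that the authors deposited, in 1 table. STAR 2.7.3a, Partek, DESeq2 and mm10 are named in the submitters' processing notes with no role, while the annotation and the strand setting are not stated. Counts were rounded. Groups followed the titles. edgeR 4.0.16 (R 4.3.3) was fitted to all 15 libraries with 5 group means, TMM scaling, its default filter on low counts and the robust quasi-likelihood test, with Benjamini-Hochberg adjustment over 15181 genes and a threshold of 0.05. No covariate was used.

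In each of the main comparisons, alternatives were DESeq2 1.42.0, limma 3.58.1 (voom), other scalings and filters, the 9 libraries of 6 months, and each library of the compared groups left out in turn. Only LD against untrained was also run with the 6 libraries compared and with LD and first block as 1 group. For that comparison alone, and chosen after seeing the data, both LD replicate 5 and untrained replicate 1 were left out. Genes named were the 12 largest rises and 12 largest falls, up to 4 members of each list with the smallest p, and others said to be named after their values were seen. A few genes that this rule chose are not reported here. The comparison and the lists were chosen with earlier results of these data known. On simulated data (14907 genes, LD against untrained), 24.2%, 47.8% and 75.8% of genes changed 1.5-fold, 2-fold and 4-fold were called, and 4.9% of calls were false. In the same simulation, the first trained block against untrained, for which no gene was changed, gave 0 calls.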

Additional observations from a re-analysis of the deposited data

Results flagged for a closer look

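Among the 23 genes reported with the largest called changes, 12 differed between the LD and the first trained block, each set against the same untrained libraries, by edgeR's quasi-likelihood test of the difference (adjusted p under 0.05). LD libraries were higher than the first block by a log2 difference of 1.14 for Stbd1, 1.55 for Cntfr, 0.95 for Pdzd7 and 1.8 for Peg10. They were lower, with differences of -2.69 for Chac1, -2.37 for Cst6, -1.49 for Epb41l4b, -1.54 for Lgals4, -1.33 for Map7, -1.8 for Tekt1, -1.19 for Fbp2 and -1.23 for Zfp783. Adjusted p ranged from 0.000147 (Cst6) to 0.0378 (Pdzd7). Among all genes tested, 365 (2.4%) differed between the blocks. The 23 genes were chosen by their change in the LD libraries, which also enter this test, so the 12 are no independent evidence. Both blocks are titled trained, and the block and the treatment field cannot be told apart as sources of these differences.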

How the results depend on the processing

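For LD against untrained muscle, the 757 calls became 1163 with DESeq2 (511 higher, 652 lower), 387 with only the 6 libraries compared, 29 with LD and first block as 1 group, 288 to 707 with 1 library left out, and 148 without both LD replicate 5 and untrained replicate 1. They were 802 with limma-voom, 771 and 759 with other scalings, 701 with no filter, 828 with a stricter filter and 625 with 9 libraries. All main calls kept their direction in each setting that gave them a value. In the 753 of 757 without overlap, scaling or leaving out libraries could hardly reverse it. The same limit bears on the 0 reversals among named genes below. For LD against the first block, the 365 calls became 675 with DESeq2 and 157 to 231 with 1 library left out, and without LD replicate 5 the share higher moved from 53.4% to 65%. For the first block against untrained, the 0 calls became 134 with DESeq2, 2 with 9 libraries, 8 with no filter and 0 to 11 with 1 library left out. Of 95 named and called genes, 39 kept their call whichever of the 6 libraries was left out, 64 lost it without both LD replicate 5 and untrained replicate 1, 86 lost it with LD and first block as 1 group, 2 kept it under every alternative, and 0 reversed. No paired analysis was possible because the untrained libraries are numbered 1 to 3 and the LD libraries 4 to 6. With 3 libraries a group, many changes of 2-fold or less may be missed.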
